A study of Mus musculus with 24 samples.

Results

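The response of control MIN6 cells to proinflammatory cytokines was described from 8 of the 24 RNA-seq libraries of the study, 4 of untreated Scr cells and 4 of Scr cells exposed to cytokines (Scr+Cy). The rule for these 8 uses their labels and no measured value. MIN6 is a mouse insulinoma line used as a model of the pancreatic β cell. Scr cells carry a lentiviral vector that expresses a scrambled sequence with a GFP reporter and a puromycin resistance gene, and serve as the control of a study on miR-146a-5p. Exposure lasted 24 h, with IFNγ at 100.0 ng/mL, TNFα at 10 ng/mL and IL-1β at 5 ng/mL. The other 16 libraries come from cells with an antisense sequence to miR-146a-5p (ZIP) and from cells that overexpress it (OE), each with and without the same mix, and are used only where responses are compared. Each stable line was expanded from a single clone, so the values describe 1 clone of a tumour-derived line. The labels number the libraries of each group from 1 to 4, and no source used here says that they came from separate cultures, so p-values measure the spread between these libraries, which may be technical.

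IFNγ signals through a receptor bound to the kinases JAK1 and JAK2, which activate STAT transcription factors, and STAT dimers bind GAS elements in the promoters of target genes. Among these targets are IRF1 and other interferon regulatory factors, which bind interferon-stimulated response elements (ISRE) and extend the programme to antigen presentation and antiviral defence. IL-1β and TNFα act through adaptor and kinase cascades that release NF-κB dimers from their inhibitors. In β cells this combination is known for inducing MHC class I, chemokines and the inducible nitric oxide synthase, and for leading to cell death.

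The stretches of promoter shown here belong to genes that mark the branches of this signalling, and let a reader see which of these elements lie before the start of transcription. Each is from the RefSeq annotation of GRCm38.p6, is written 5′ to 3′ on the strand of its gene, and has matches in capitals to the letters TTCNNNGAA (GAS), GAAANNGAA (ISRE core) or the NF-κB consensus, searched on both strands.
Irf1 (chr11:53769912-53770013, plus strand, transcription factor; GAS 90 and NF-κB 13 bases before the start): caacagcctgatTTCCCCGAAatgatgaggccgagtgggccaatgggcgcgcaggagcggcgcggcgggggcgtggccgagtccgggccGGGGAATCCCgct
Nfkbia (chr12:55492655-55492712, minus strand, NF-κB inhibitor; ISRE core 53 and NF-κB 29 bases before the start): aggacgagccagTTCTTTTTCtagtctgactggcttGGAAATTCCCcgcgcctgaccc
Cxcl10 (chr5:92348971-92349114, minus strand, T cell chemokine; ISRE core 213 bases before the start, NF-κB at 159 and an overlapping pair at 104 and 103): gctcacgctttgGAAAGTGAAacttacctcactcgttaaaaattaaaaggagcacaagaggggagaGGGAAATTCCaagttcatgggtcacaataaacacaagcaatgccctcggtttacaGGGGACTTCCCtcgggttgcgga
Gbp2 (chr3:142620593-142620625, plus strand, guanylate-binding protein; ISRE core 58 bases before the start): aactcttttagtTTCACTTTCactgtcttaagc
Cd274 (chr19:29367350-29367382, plus strand, PD-L1; ISRE core 76 bases before the start): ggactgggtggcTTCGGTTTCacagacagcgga
Ifi211 (chr1:173913063-173913095, minus strand, the largest fitted rise; ISRE core 37 bases before the start): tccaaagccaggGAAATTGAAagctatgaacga
9330175E14Rik (chr8:94435200-94435233, minus strand, an unnamed transcript with the second largest fitted rise; NF-κB 118 bases before the start): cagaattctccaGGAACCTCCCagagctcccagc

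Psmb9, an immunoproteasome subunit, had none of these letters in the 250 bases before its start, and Nos2 and Ly6a are named only. Over all 17365 promoters of 13884 genes, each read from 250 bases before to 50 bases after the start, 7.05% held the GAS letters, 7.27% the ISRE core and 10.3% the NF-κB consensus. In the promoters of genes that rose at least 16-fold the shares were 14.3%, 29.1% and 22.2%, and at least 1 of the 3 was present in 52.6% of their 230 promoters against 22.6% of all. Among the 1389 promoters of genes that fell the shares were 4.75%, 6.48% and 10.7%. A match is a run of letters and not evidence of binding.

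The 8 libraries held 29370152 to 36406136 reads assigned to genes. Levels are CPM, the reads of a gene relative to a library size scaled by TMM factors, and fold changes are from edgeR's quasi-likelihood test with Benjamini-Hochberg adjustment over 17696 genes. A gene is said to have risen or fallen when its adjusted p was under 0.05, with no limit on the fold change, and log2 fold changes are given ± SE. Over 12670 genes at 1 CPM or more, the first principal component held 79.67% of the variance and separated Scr (-52.36 to -35.49) from Scr+Cy (37.56 to 49.69). The second held 10.22% and was highest in both libraries numbered 1 (22.35 and 29.85). Ins2, the main insulin gene of the mouse, was at 9302 to 13768 CPM in Scr and 8501 to 9638 CPM in Scr+Cy, and the summed level of 10 β cell markers was 20005 to 26227 CPM and 20740.0 to 22722 CPM. Of the defining markers of other cells, Ppy had no read in any library, the 6 measured macrophage genes summed to between 0.995 and 2.96 CPM, and the 3 measured lymphocyte genes to at most 0.517 CPM.

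Fibroblast genes stood apart in both libraries numbered 1. Col1a1 and Dcn, which encode matrix proteins, carried most of it, with 3.43, 0.632, 0.0625 and 0 CPM in Scr and 14, 0.0344, 0 and 0.03 CPM in Scr+Cy for Dcn. The 6 fibroblast markers summed to 18.9 CPM in Scr replicate 1 and 58.7 CPM in Scr+Cy replicate 1, against 0.867 to 3.94 CPM in the other 6 libraries. None of the 6 passed the test, and Col1a1, Col1a2 and Col3a1 were higher with the replicate block (adjusted p = 0.00212, 0.00222 and 0.000439). The 5 duct cell markers summed to 8.90, 3.82, 3.50 and 3.10 CPM in Scr and 16.7, 6.82, 7.48 and 4.45 CPM in Scr+Cy, higher in every same-numbered pair, and none passed the test, or 3 with the replicate block. Of the 3 measured endothelial markers, which summed to 2.16 to 3.37 CPM, Pecam1 rose from 0.108, 0.115, 0.0625 and 0.0619 CPM to 0.739, 0.585, 0.721 and 0.751 CPM (2.94 ± 0.46; edgeR adjusted p = 3.27e-05). The part of these cell markers in the results was not tested. When both libraries numbered 1 were left out, a choice made after seeing these data, 1532 genes rose and 1037 fell.

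The untreated libraries differed in how much RNA of the cytokine-induced genes they held. For 50 genes with a fitted rise of at least 6 on the log2 scale that reached a mean of at least 20 CPM in Scr+Cy, the median level was 0.159%, 0.524%, 1.40% and 0.465% of the Scr+Cy mean in Scr replicates 1 to 4. Scr replicate 1 had no read for 12 of the 50, and Scr replicate 3 had reads for all. The treated libraries stood at 73.9%, 114%, 114% and 97.2%. Leaving out Scr replicate 3 raised the fitted fold change of 23 of the 199 named genes that passed the test by more than 1.5 times, and these values are given beside those genes. Among them was Lcn2, the gene of the iron-binding protein lipocalin 2, which rose by 7.23 ± 0.72 on the log2 scale (edgeR adjusted p = 3.60e-08), or 8.06 without Scr replicate 3.

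**Figure D1:**
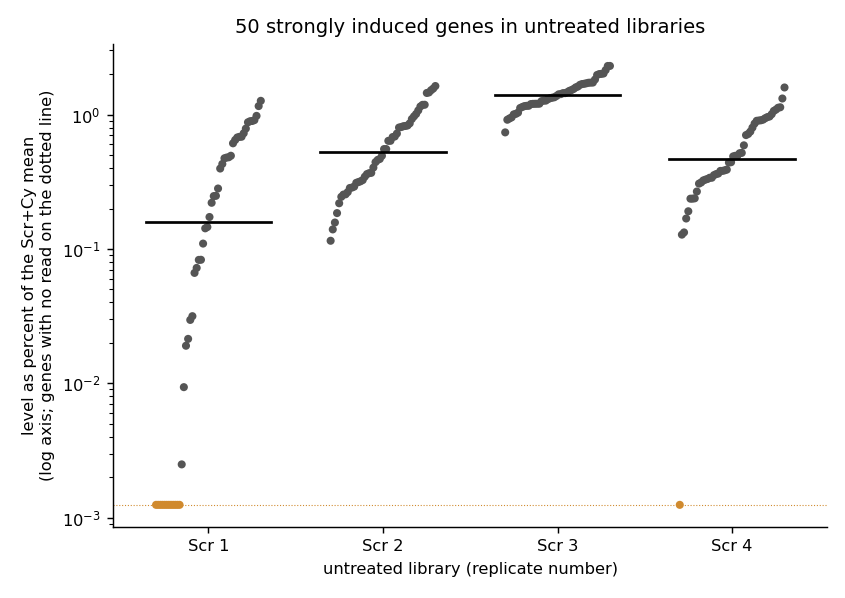
Level of 50 strongly induced genes in each untreated Scr library, as a percent of the mean of the 4 Scr+Cy libraries (y axis, log scale), with 1 point per gene, a line at the median, and genes without a read on the dotted line. The median was lowest in Scr replicate 1 (0.159%, with 12 genes at 0) and highest in Scr replicate 3 (1.40%).

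Cytokines raised 1853 genes and lowered 1298 in Scr cells, 10.5% and 7.33% of the 17696 tested. The rises were far larger than the falls. At least a 2-fold fitted change was reached by 800 of the higher and 81 of the lower genes, at least a 16-fold change by 280 and 5, and at least a 64-fold change by 120 and 0. The median log2 fold change was 0.76 among the higher genes and -0.34 among the lower genes, against 0.0023 over all genes. The CPM of Scr and Scr+Cy libraries did not overlap for 1609 (86.8%) of the higher and 1077 (83.0%) of the lower genes, against 3744 (21.2%) of all genes tested. As a share of the library size scaled by TMM factors, genes that rose took 7.39% ± 0.065 (SD, n = 4) in Scr and 14% ± 0.807 in Scr+Cy. Genes that fell took 15.2% ± 0.066 and 12.1% ± 0.219. Of the higher genes, 274 stayed under 1 CPM in both groups, and 95 had no read in any Scr library.

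Same-numbered libraries deviated together from their group means, with correlations of 0.4132 to 0.6258 over 12670 genes, and each library correlated best with its own number. With the replicate number as a block, 2944 genes rose and 2559 fell (16.6% and 14.5%), including 1777 and 1280 of those called without it and none in the opposite direction. In all 4 same-numbered pairs the sign was that of the group for 96.0% of the higher and 99.1% of the lower genes. These genes were called from the same libraries, so this agreement is largely set by the selection and is no separate support. At the thresholds of the study, a fold change of at least 1.5 with an unadjusted p under 0.05, 1395 genes were higher and 472 lower in edgeR (7.88% and 2.67%). The study applied these thresholds to DESeq2, with which 1171 genes were higher and 422 lower here.

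**Figure D2:**
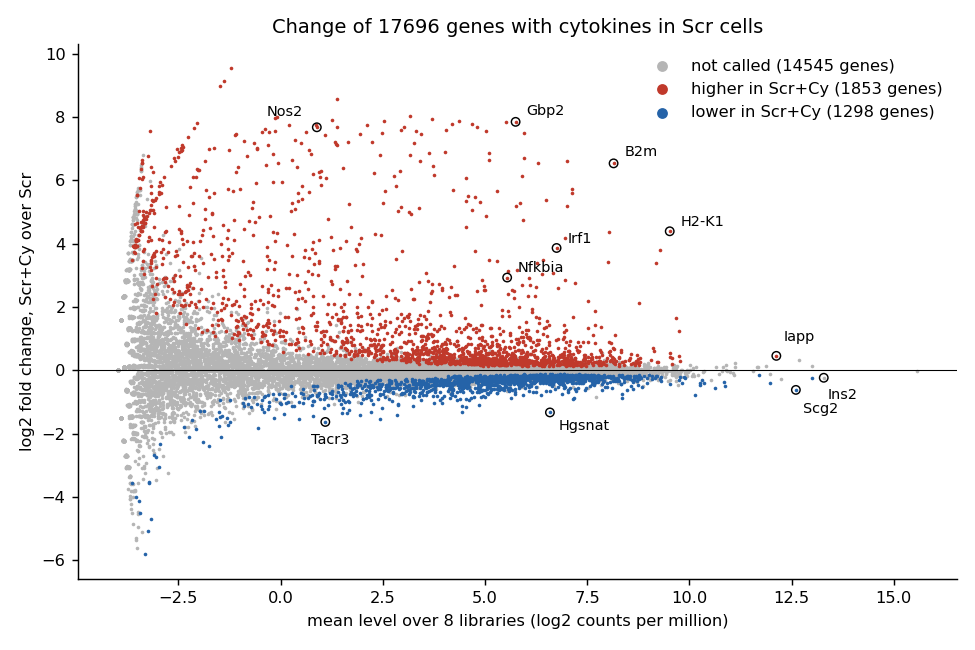
Log2 fold change of each of 17696 genes in Scr+Cy over Scr (y axis) against its mean level over the 8 libraries (x axis, log2 CPM), with 1853 higher genes in red, 1298 lower genes in blue, other genes in grey and 11 genes circled and named. Changes past 16-fold lie almost entirely above 0, with 280 genes higher and 5 lower.

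The genes with the largest fitted rises were almost silent in untreated cells. Ifi211, of the PYHIN family of interferon-inducible proteins, had no read in Scr and stood at 1.6, 3.75, 2.92 and 3.63 CPM in Scr+Cy, at least 33.6-fold above the floor of 3 reads per library, which is 0.0885 CPM. The unnamed transcript 9330175E14Rik and Ly6a, which encodes the surface protein Sca-1, were likewise without a read in Scr and rose at least 25.6-fold and at least 22.9-fold. Among genes with reads in both groups, Apol9b, of the apolipoprotein L family, rose from 0, 0.0862, 0.344 and 0.0619 CPM to 34.2, 52, 50.5 and 49.9 CPM, a log2 fold change of 8.58 ± 0.55 (edgeR adjusted p = 1.03e-11). Its 4 treated libraries were all far above the untreated ones, with replicate 1 the lowest of the treated. The other 11 of the 15 largest rises, with log2 fold changes of 7.79 to 8.04, were Ifi47, 9930111J21Rik1, Apol6, Zbp1, Gm4951, C1s1, Tgtp2, Gbp2, Iigp1, Tgtp1 and Gm12250. Without Scr replicate 3 the log2 fold changes were higher for all 12 of these genes. They were 9.81 for Apol9b, 8.97 for Ifi47, 11.34 for 9930111J21Rik1, 9.55 for Apol6, 9.65 for Zbp1, 9.22 for Gm4951. All 5 untreated reads of 9930111J21Rik1 were in Scr replicate 3, so its 11.34 is fitted against no read and is no bound. For the other 6 they were 8.69 for C1s1, 9.09 for Tgtp2, 8.89 for Gbp2, 8.93 for Iigp1, 8.91 for Tgtp1 and 8.79 for Gm12250. Apol9b, Tgtp1, Tgtp2, Ly6a and Iigp1 belong to families of near-identical copies, among which the counting could have split reads.

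The receptors and kinases that receive these signals changed little beside their targets. Of 7 genes for interferon receptors and Janus kinases, 5 rose and none fell, with a median log2 fold change of 0.53. Ifngr2, the signalling chain of the IFNγ receptor, rose from 18.4, 15.9, 18.7 and 16.1 CPM to 43.4, 45.7, 48 and 35.8 CPM (1.32 ± 0.11; edgeR adjusted p = 2.24e-09), with no overlap between groups. Ifngr1, its ligand-binding chain, was at 29.4 to 33 CPM in Scr and 27.9 to 33.6 CPM in Scr+Cy and did not pass the test. Jak2 rose by 0.81 ± 0.09 on the log2 scale, Tyk2 by 0.53 ± 0.08 and Ifnar2, a chain of the type I interferon receptor, by 1.01 ± 0.11. Jak1 rose by 0.18 ± 0.06, a call lost without Scr replicates 1 or 2 or Scr+Cy replicates 2 or 3 (adjusted p up to 0.0791).

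The transcription factors of the interferon response rose strongly. Of 16 STAT and IRF factors, 10 rose and none fell, with a median log2 fold change of 1.69. Irf1 (mm10 chromosome 11, 53770014 to 53778374) was at 29.1, 28.3, 30.1 and 25.6 CPM in Scr and 365, 424, 433 and 425 CPM in Scr+Cy, a log2 fold change of 3.86 ± 0.10 (edgeR adjusted p = 1.59e-18). Both groups were tight and apart, with Scr+Cy replicate 1 the lowest treated library. Stat2 and Irf9, which are part of the complex that binds ISRE, rose by 3.05 ± 0.14 and 3.77 ± 0.11. Irf7, which amplifies type I interferon responses, rose by 5.36 ± 0.28, from 3.53, 3.91, 4.72 and 2.45 CPM to 109, 184, 179 and 129 CPM. Stat3, activated by the interleukin-6 family, rose by 1.88 ± 0.08, and Irf2, an antagonist of Irf1, by 1.15 ± 0.07. Batf2 and Irf8 rose by 7.17 ± 0.54 and 6.32 ± 0.77, or by 8.88 and 7.82 without Scr replicate 3. Irf8 had reads in only 1 untreated library, Scr replicate 3, and reached at most 1.62 CPM. Its 7.82 is thus fitted against no read and is no bound.

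Inhibitors of this pathway rose too. Of 9 genes that restrain JAK-STAT signalling, 5 rose and none fell, with a median of 0.26. Socs1, which blocks the kinases, was at 1.4, 0.661, 0.844 and 0.96 CPM in Scr and 9.95, 14.2, 13.7 and 15.6 CPM in Scr+Cy, without overlap, and rose by 3.77 ± 0.25 (edgeR adjusted p = 2.55e-11). Usp18, which shields the type I interferon receptor, rose by 2.65 ± 0.14, Cish by 0.76 ± 0.13 and the phosphatase genes Ptpn2 and Ptpn1 by 0.36 ± 0.08 and 0.26 ± 0.05. Socs3 was at 23.1 to 25.5 CPM in Scr and 23.6 to 29.2 CPM in Scr+Cy and passed the test only with the replicate block, where its adjusted p was 0.0401.

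Genes of the receptors and first adaptors of IL-1β and TNFα changed modestly. Of 26 such genes, 11 rose and none fell, with a median of 0.38, or 14 and 1 with the replicate block. Il1r1, the IL-1 receptor, was already expressed and rose from 638, 662, 616 and 726 CPM to 847, 903, 808 and 929 CPM (0.40 ± 0.08; edgeR adjusted p = 7.08e-04). Tnfrsf1a, the main TNF receptor, rose by 0.71 ± 0.08, the adaptor gene Myd88 by 1.20 ± 0.10, Traf3 by 1.05 ± 0.06 and the kinase gene Map3k8 by 2.34 ± 0.19. Irak1 and Traf6, known targets of miR-146a, were at 158 to 183 CPM in Scr and 146 to 165 CPM in Scr+Cy and 70.8 to 77.8 CPM in Scr and 76.9 to 82.7 CPM in Scr+Cy. Neither passed the test (adjusted p = 0.17 and 0.209), while with the replicate block Irak1 was lower (0.0135) and Traf6 higher (0.0344).

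All 5 NF-κB subunits rose, with a median of 0.90. Nfkb2 and Relb, which form the dimer of the noncanonical branch, rose most. Nfkb2 was at 12.5, 11.4, 14 and 10 CPM in Scr and 126, 141, 152 and 105 CPM in Scr+Cy (3.45 ± 0.11; edgeR adjusted p = 4.42e-17), and Relb rose by 3.76 ± 0.19. Rela, Rel and Nfkb1 rose by 0.48 ± 0.08, 0.54 ± 0.09 and 0.90 ± 0.08. In every one of these 5 genes the groups did not overlap, beside 21.2% of all genes tested.

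The feedback inhibitors of NF-κB rose nearly as a whole, 14 of 15 with a median of 1.81, the remaining one being Tnip3, which had no read. Nfkbia (chromosome 12, 55489409 to 55492647), the gene of IκBα, was at 19.7, 15.5, 17.3 and 15.5 CPM in Scr and 136, 138, 146 and 97.3 CPM in Scr+Cy, a rise of 2.93 ± 0.11 (edgeR adjusted p = 5.76e-16), and Scr+Cy replicate 4 was the lowest treated library. Tnfaip3, the gene of the deubiquitinase A20, was at 2.75, 4.17, 7.28 and 9.29 CPM in Scr and 28, 35.5, 38.7 and 24.5 CPM in Scr+Cy, with the untreated libraries widely spread and still below every treated one. Nfkbie, Nfkbiz and Bcl3 rose by 2.82 ± 0.18, 2.55 ± 0.18 and 2.26 ± 0.11, Tnip1 by 1.71 ± 0.12, and Zc3h12a, which encodes an RNase that degrades cytokine messages, by 3.38 ± 0.25.

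Chemokines that draw T cells and monocytes rose from near 0. Of 13 chemokine genes, 9 rose and none fell, with a median of 2.84, or 2.19 when genes without an untreated read are set at their lower bound, and 8 rose with the replicate block. Cxcl10 (chromosome 5, 92346639 to 92348889), a ligand of CXCR3, was at 0.135, 2.27, 8.94 and 2.29 CPM in Scr and 385, 810.1, 783 and 541 CPM in Scr+Cy, so untreated libraries differed widely among themselves and yet all lay far below the treated ones. Its log2 fold change was 7.56 ± 0.83 (edgeR adjusted p = 1.65e-07), and 8.69 without Scr replicate 3. Cxcl9, another CXCR3 ligand, rose by 7.57 ± 0.82, or 8.72 without that library. Ccl2, which draws monocytes, was at 0.566, 0.0287, 0.25 and 0.0619 CPM in Scr and 13.9, 20.4, 28.1 and 12.2 CPM in Scr+Cy. It rose by 6.28 ± 0.52, or by 7.33 without Scr replicate 1, the untreated library with its highest level. Cxcl12 rose by 1.38 ± 0.41, a call lost without Scr replicate 2 (adjusted p = 0.0688). Ccl20 and Cxcl1 rose but stayed at or under 1.24 CPM.

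Among 17 cytokine and growth factor genes, 8 rose and none fell, with a median of 2.36. Il18bp, the secreted antagonist of interleukin-18, was at 2.37, 4, 5.22 and 2.45 CPM in Scr and 325, 354, 336 and 376 CPM in Scr+Cy (6.64 ± 0.31; edgeR adjusted p = 2.83e-14), and the treated libraries lay close together. Tnfsf10, the death ligand TRAIL, rose from 1.75, 3.19, 4.5 and 2.2 CPM to 154, 234, 239 and 155 CPM (6.08 ± 0.34). Csf1, the macrophage growth factor, rose by 3.49 ± 0.18 and Lif by 2.52 ± 0.26. Of the cytokines in the mix, Tnf had no read in Scr and was at 0.677, 0.551, 1.37 and 0.661 CPM in Scr+Cy, a rise of at least 9.22-fold, while Il1b was at 2.16 to 2.91 CPM in Scr and 2.58 to 3.72 CPM in Scr+Cy and did not pass the test.

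**Figure D3:**
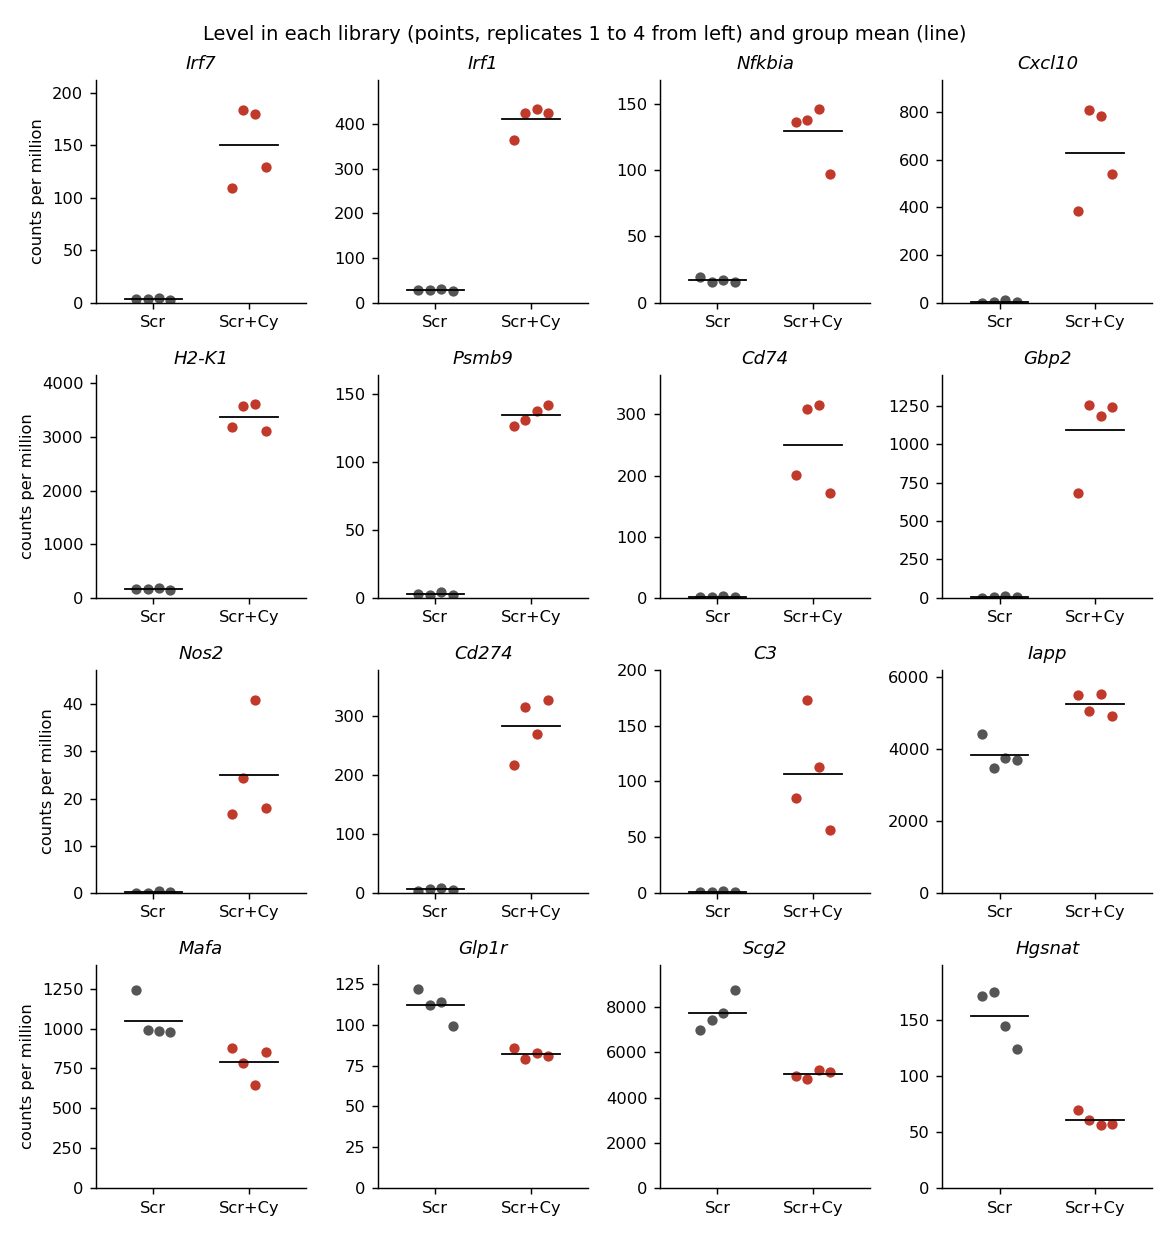
Level in CPM (y axes, linear from 0) of 16 genes in each Scr and Scr+Cy library (points, replicates 1 to 4 from left to right) with group means as lines. Groups do not overlap for any of the 16, beside 21.2% of all genes tested, and of these 16 H2-K1 rose 21-fold and Scg2 fell 1.54-fold.

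Antigen presentation by MHC class I took the largest gains in reads. Of 17 genes for class I heavy chains and β2-microglobulin, 14 rose and none fell, with a median log2 fold change of 4.39. H2-K1 (chromosome 17, 33996012 to 34000347), a classical heavy chain, was at 168, 158, 176 and 141 CPM in Scr and 3188, 3581, 3607 and 3109 CPM in Scr+Cy, a 21-fold rise (4.39 ± 0.14; edgeR adjusted p = 2.16e-17). B2m, the shared light chain, rose from 18.9, 28.3, 47.3 and 26.4 CPM to 2617, 3027, 2772 and 2801 CPM (6.54 ± 0.37). H2-D1 rose by 3.80 ± 0.11, the nonclassical genes H2-T23 by 6.70 ± 0.36 and H2-Q6 by 6.12 ± 0.40, and H2-Q4 by 4.18 ± 0.16. Groups were apart in each of these genes and in 15 of the 17, beside 21.2% of all genes tested. Class I genes are close paralogs, so the division of reads between them is uncertain.

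Genes that supply peptides to class I rose with them, 12 of 14 with a median of 3.16. Nlrc5, the transactivator of class I genes, was at 0.728, 1.52, 2.97 and 1.08 CPM in Scr and 151, 192, 198 and 193 CPM in Scr+Cy (6.88 ± 0.31; edgeR adjusted p = 1.69e-14). Psmb9 (chromosome 17, 34182099 to 34187330), one of 3 inducible subunits of the immunoproteasome, was at 2.4, 2.16, 4.03 and 1.83 CPM in Scr and 126, 131, 138 and 142 CPM in Scr+Cy (5.69 ± 0.20), and its fellow subunits Psmb8 and Psmb10 rose by 5.28 ± 0.25 and 5.51 ± 0.19. The peptide transporter genes Tap1 and Tap2 rose by 5.37 ± 0.23 and 3.50 ± 0.12, Tapbp, the gene of tapasin, by 3.40 ± 0.07, and Erap1, which trims peptides, by 2.75 ± 0.07. Psme1, of the proteasome activator, rose by 2.92 ± 0.10. The general chaperone genes Calr and Canx did not pass the test, at 1916 to 2201 CPM in Scr and 2106 to 2641 CPM in Scr+Cy for Calr. Calr was higher with the replicate block (adjusted p = 4.74e-05). Constitutive proteasome subunits moved far less, with 11 of 34 higher, none lower and a median of 0.10, or 18 higher with the replicate block.

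MHC class II genes, which are normally restricted to antigen-presenting cells, rose in 10 of 13 cases, with a median of 5.46, or 2.09 with unread genes at their lower bound. Cd74, the invariant chain, was at 0.432, 1.01, 2.84 and 0.96 CPM in Scr and 201, 309.8, 316 and 171 CPM in Scr+Cy, a rise of 7.60 ± 0.55 (edgeR adjusted p = 9.34e-11), or 8.30 without Scr replicate 3. The transactivator gene Ciita rose from 0.135, 0.0575, 0.375 and 0.124 CPM to 6.96, 10.1, 10.9 and 11.2 CPM (5.82 ± 0.46, or 6.48 without Scr replicate 3). The chain genes H2-Aa, H2-Ab1 and H2-Eb1 rose by 4.79 ± 0.59, 5.60 ± 0.72 and 6.84 ± 0.85 and stayed under 16 CPM, with 6.67 for H2-Ab1 when Scr replicate 2 was left out. H2-DMb1, which helps load peptides, rose by 7.61 ± 0.72. Of the defining genes of macrophages and lymphocytes in these libraries, none passed the test, and their summed levels did not exceed 2.96 CPM in any library.

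Interferon-inducible GTPases that attack intracellular pathogens all rose, 19 of 19, with a median log2 fold change of 7.17. Together they took 43.5, 77.6, 148 and 70.2 CPM in Scr replicates 1 to 4 and 6927, 9764, 9459.7 and 9493 CPM in Scr+Cy. Gbp2 (chromosome 3, 142620663 to 142638008) was at 0.324, 3.1, 12.2 and 3.62 CPM in Scr and 681, 1258, 1187 and 1242 CPM in Scr+Cy (7.85 ± 0.91; edgeR adjusted p = 4.06e-07), with Scr+Cy replicate 1 the lowest treated library and still far above every untreated one. Without Scr replicate 3 the change was 8.89. Iigp1 was at 0.027, 3.45, 12.6 and 3.31 CPM in Scr and 830.5, 1234, 1132 and 1131 CPM in Scr+Cy, and its change was 7.83 ± 0.87, or 8.93 without that library. Igtp, of the same immunity-related family, was at 8.93, 12.1, 22.1 and 10.4 CPM in Scr and 1158, 1309, 1314 and 1441 CPM in Scr+Cy (6.61 ± 0.45). Gbp7, Gbp3 and Irgm1 rose by 5.74 ± 0.35, 7.48 ± 0.76 and 5.62 ± 0.29, with 8.25 for Gbp3 without Scr replicate 3. Gbp genes are close paralogs.

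Of 46 antiviral interferon-stimulated genes, 45 rose and none fell, with a median of 3.85, or 3.49 with unread genes at their lower bound. The exception was Trim30a, with reads in 1 treated library only. Isg15, a ubiquitin-like modifier, was at 0.486, 0.374, 0.563 and 0.526 CPM in Scr and 35.8, 65.7, 64.9 and 51.3 CPM in Scr+Cy (6.80 ± 0.37; edgeR adjusted p = 5.06e-13). Oas2 and Oasl2, of the oligoadenylate synthetase family, rose by 7.23 ± 0.29 and 6.88 ± 0.44, Rsad2, the gene of viperin, by 4.87 ± 0.26, and Mx1 by 2.40 ± 0.24. The sensors of double-stranded RNA Ifih1 and Ddx58 rose by 6.25 ± 0.23 and 4.54 ± 0.17, and the nucleic acid sensor Zbp1 went from 0.027, 0.402, 3.81 and 0.681 CPM to 207, 321, 307 and 317 CPM (7.92 ± 0.66, or 9.65 without Scr replicate 3). Parp14 rose by 5.19 ± 0.17. Smaller rises were seen for Eif2ak2, the gene of the kinase PKR (1.93 ± 0.09), and the RNA editing enzyme gene Adar (1.42 ± 0.07).

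Complement and acute-phase genes, better known from liver, rose in 12 of 17 cases with a median of 5.75, or 4.33 with unread genes at their lower bound. C3 (chromosome 17, 57203967 to 57228136), the central complement component, was at 0.971, 0.862, 1.63 and 0.96 CPM in Scr and 85, 173, 113 and 56.3 CPM in Scr+Cy (6.60 ± 0.47; edgeR adjusted p = 8.37e-11). Its treated libraries were spread widely, with replicate 2 highest and replicate 4 lowest, and all lay far above the untreated ones. C1s1, C1ra and C4b, of the classical pathway, rose by 7.87 ± 0.60, 6.87 ± 0.50 and 7.58 ± 0.47, and Cfb, of the alternative pathway, by 6.44 ± 0.46. Serping1, the C1 inhibitor, was at 0.647, 1.32, 5.47 and 1.61 CPM in Scr and 338, 514, 459 and 508 CPM in Scr+Cy, a rise of 7.68 ± 0.57, or 8.60 without Scr replicate 3. The acute-phase genes Lcn2 and Saa3 rose by 7.23 ± 0.72 and 7.13 ± 0.56 (8.06 and 7.98 without Scr replicate 3), and both were lowest in Scr+Cy replicate 4.

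Immune surface molecules, together with tryptophan-degrading enzymes, rose in 11 of 15 cases, with a median of 3.48, or 2.19 with unread genes at their lower bound. Cd274 (chromosome 19, 29367438 to 29388094), the gene of the inhibitory ligand PD-L1, was at 3.91, 6.07, 7.5 and 5.08 CPM in Scr and 217, 315, 270.0 and 328 CPM in Scr+Cy (5.65 ± 0.22; edgeR adjusted p = 1.22e-15). Icam1, the adhesion ligand of leukocyte integrins, rose from 0, 0.345, 0.625 and 0.279 CPM to 37.4, 60.1, 71.3 and 47.5 CPM (7.46 ± 0.53), Cd40 by 3.19 ± 0.27 and Cd47, which signals to phagocytes, by 0.90 ± 0.06. Groups did not overlap for any of the 4, beside 21.2% of all genes tested. Ido1, which degrades tryptophan, had no read in Scr and at most 0.103 CPM in Scr+Cy, and did not pass the test.

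Among genes for nitric oxide and its arginine supply, the inducible synthase stood alone. Of 12 such genes, 2 rose and 1 fell, with a median of 0.08, or 3 and 2 with the replicate block. Nos2 (chromosome 11, 78920787 to 78960226) was at 0, 0.0287, 0.344 and 0.124 CPM in Scr and 16.8, 24.3, 40.9 and 17.9 CPM in Scr+Cy, a rise of 7.68 ± 0.77 (edgeR adjusted p = 4.27e-08), or 8.91 without Scr replicate 3. Ass1, which regenerates arginine, was at 12.3 to 15.4 CPM in Scr and 15.3 to 17.3 CPM in Scr+Cy, and Gch1, which makes the cofactor tetrahydrobiopterin, at 47.9 to 57.1 CPM in Scr and 52.6 to 59.4 CPM in Scr+Cy. Neither passed the test, while Ass1 was higher with the replicate block (adjusted p = 0.0049). Slc7a2, an arginine transporter, fell by 0.42 ± 0.11 on the log2 scale, from 364, 382, 368 and 387 CPM to 292, 291, 266 and 271 CPM. Qdpr rose by 0.17 ± 0.06, and lost its call without Scr replicates 2, 3 or 4 or Scr+Cy replicates 1, 2, 3 or 4 (adjusted p up to 0.127).

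Antioxidant genes moved modestly, with 7 of 21 higher, none lower and a median of 0.25, or 11 higher and 2 lower with the replicate block. Gpx1, a glutathione peroxidase, rose from 83.4, 82.5, 73 and 65.5 CPM to 144, 168, 149 and 135 CPM (0.97 ± 0.08; edgeR adjusted p = 1.63e-09), without overlap. Sod2, the mitochondrial superoxide dismutase and a known NF-κB target, rose by 0.44 ± 0.10, Hmox1 by 0.66 ± 0.16 and Gclm, of glutathione synthesis, by 0.30 ± 0.07. Txnip, an inhibitor of thioredoxin, rose by 0.84 ± 0.19.

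Genes of cell death rose on several branches. Of 15 caspase and inflammasome genes, 10 rose and none fell, with a median of 0.54. Casp1, the inflammatory caspase that matures interleukin-1β, was at 0.216, 0.374, 0.313 and 0.248 CPM in Scr and 17.7, 27, 30.7 and 23.1 CPM in Scr+Cy (6.40 ± 0.34; edgeR adjusted p = 3.85e-13), with groups far apart. Casp4 rose by 6.54 ± 0.60, or by 7.40 without Scr replicate 4, and Gsdmd, the pore-forming gasdermin, by 2.64 ± 0.13. Among apoptotic caspases, Casp8 rose by 0.48 ± 0.09, while Casp9 was at 24.8 to 28.4 CPM in Scr and 21.5 to 26.4 CPM in Scr+Cy and did not pass the test. Casp12 had no read in Scr and rose at least 5.53-fold.

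Of 15 BCL2 family genes, 3 rose and 1 fell, with a median of 0.12, or 7 and 1 with the replicate block. The 3 higher genes were the proapoptotic Bid (1.78 ± 0.14; edgeR adjusted p = 3.50e-10), Bok (1.34 ± 0.14) and Bak1 (1.32 ± 0.09). The lower one was Bcl2l2, which protects against apoptosis and fell by 0.15 on the log2 scale, a call lost without Scr replicates 2, 3 or 4 or Scr+Cy replicates 1 or 3 (adjusted p up to 0.0865). Bcl2, which also protects against apoptosis, was at 22.6 to 26.3 CPM in Scr and 24.2 to 26.8 CPM in Scr+Cy and did not pass the test. Bbc3, the gene of PUMA, passed only with the replicate block (adjusted p = 6.28e-04).

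Among 13 genes of death receptors, necroptosis and their inhibitors, 10 rose and none fell, with a median of 0.71. Mlkl, the executor of necroptosis, was at 10.6, 12.9, 14.8 and 15.1 CPM in Scr and 57.7, 79.7, 83.5 and 90.4 CPM in Scr+Cy (2.55 ± 0.16; edgeR adjusted p = 8.72e-12). Birc3, an NF-κB target that inhibits death signalling, rose by 3.52 ± 0.18 and Cflar, the gene of the caspase-8 inhibitor FLIP, by 0.71 ± 0.09. Trp53 rose by 0.90 ± 0.08, and its target Cdkn1a, at 79.2 to 108 CPM in Scr and 98.9 to 137 CPM in Scr+Cy, passed only with the replicate block (adjusted p = 7.00e-04). Fas, which had no read in Scr, was at 0.523, 0.138, 0.206 and 0.0901 CPM in Scr+Cy. Its fitted change of 5.93 ± 1.26 fell to 5.20 without Scr+Cy replicate 1, the library with its highest level. Both values are fitted against no untreated read and are no bound. Scr+Cy replicate 4 was near the floor of 0.0885 CPM.

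Beside this induction, the changes of β cell identity genes were small in size. In bulk RNA, fewer cells of a type and less RNA per cell cannot be told apart for any of these genes. Of 20 β cell transcription factors, 3 rose and 3 fell, with a median of -0.06, and 6 rose and 3 fell with the replicate block. The shares of all genes that rose and fell were 10.5% and 7.33%, or 16.6% and 14.5% with the block. None of the 20 fell without Scr replicate 1, and 1 did without Scr+Cy replicate 2 or 3. Mafa (chromosome 15, 75745501 to 75748321), an activator of the insulin gene, was at 1242, 994, 985 and 981 CPM in Scr and 880.1, 786, 647 and 849.8 CPM in Scr+Cy, so that Scr replicate 1 was highest and the groups were apart. It fell by 0.41 ± 0.11 on the log2 scale (edgeR adjusted p = 0.0109), a call lost without Scr replicate 1 or without Scr+Cy replicate 3 (adjusted p up to 0.0580). Nkx6-1 and Pax6 both fell by 0.25 (SE 0.07 and 0.09). The call for Nkx6-1 was lost without Scr replicate 1 or Scr+Cy replicate 2 (up to 0.0939), and that for Pax6 without Scr replicates 1, 3 or 4 or Scr+Cy replicates 1, 2 or 3 (adjusted p up to 0.16). Neurod1 rose by 0.31 ± 0.06 and Rfx6, a regulator of endocrine identity, by 0.65 ± 0.09. Pdx1 was at 782 to 855 CPM in Scr and 750.3 to 783 CPM in Scr+Cy and did not pass the test.

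Insulin itself did not pass the test. Ins2 was at 13768, 11077, 9302 and 9586 CPM in Scr and 9638, 9318, 8501 and 9606 CPM in Scr+Cy, with overlapping groups and an adjusted p of 0.145, or 0.00785 with the replicate block. Ins1 was at 528 to 811 CPM in Scr and 576 to 819.7 CPM in Scr+Cy. Of 19 genes for hormones and granule cargo, 1 rose and 5 fell with a median of -0.15, or 5 and 7 with the replicate block. The 5 were Scg2, Slc30a8, Scg3, Ptprn2 and Gad2, which became 1 without Scr replicate 1 or Scr+Cy replicate 4, 2 without Scr replicate 2, and 3 without Scr replicate 3 or Scr+Cy replicates 2 or 3. The higher one was Iapp, the gene of islet amyloid polypeptide, at 4422, 3469, 3747 and 3694 CPM in Scr and 5510.1, 5051, 5533 and 4908 CPM in Scr+Cy (0.45 ± 0.07; edgeR adjusted p = 4.29e-05), without overlap. Scg2, a granin of secretory granules, went from 7003, 7444, 7750.3 and 8780.4 CPM to 4940.4, 4839, 5208 and 5148 CPM and fell by 0.62 ± 0.07 on the log2 scale, the largest loss of reads of any gene that fell. Chgb, another granin, was higher only with the replicate block (adjusted p = 8.31e-07). Slc30a8, the granule zinc transporter, fell by 0.93 ± 0.26, a call lost without Scr replicate 1 or Scr+Cy replicate 4 (up to 0.0890). Scg3 fell by 0.29 ± 0.10 and lost its call without any 1 of the 8 libraries (0.0628 to 0.114). The call for Gad2, an enzyme that makes GABA, was lost without Scr replicates 1 or 2 or Scr+Cy replicates 3 or 4 (adjusted p up to 0.113), and that for Ptprn2, a granule membrane protein, without Scr replicates 1, 2 or 3 or Scr+Cy replicates 2 or 4 (adjusted p up to 0.101).

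For glucose sensing and signalling receptors the picture was mixed, with 2 of 22 higher, 3 lower and a median of -0.08, against 5 higher and 10 lower with the replicate block. The 3 that fell were receptors. Glp1r, the GLP-1 receptor, went from 122, 112, 114 and 99 CPM to 85.6, 79.1, 82.8 and 80.6 CPM and fell by 0.45 ± 0.10 on the log2 scale, Gipr, the GIP receptor, fell by 0.82 ± 0.16, and Adra2a, an adrenergic receptor that inhibits secretion, fell by 0.76 ± 0.09. Slc2a2, the glucose transporter GLUT2, was at 37.7, 20.8, 22.1 and 15.5 CPM in Scr and 22.6, 14, 12.1 and 9.43 CPM in Scr+Cy. Each number was lower with cytokines, and its adjusted p was 0.0657 without and 1.12e-07 with the replicate block. Ldha, a lactate dehydrogenase gene normally low in β cells, was at 952, 277, 458 and 834 CPM in Scr and 698, 170.0, 289.9 and 626 CPM in Scr+Cy, with wide differences among untreated libraries and a lower value in all 4 pairs (adjusted p = 0.546 and 1.30e-07).

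Of 18 genes for granule exocytosis, 1 rose and 4 fell, with a median of -0.12, or 1 and 9 with the replicate block. Rab3a, a GTPase of granule docking, went from 125, 125, 108 and 109 CPM to 89.7, 92.1, 82.4 and 86.5 CPM and fell by 0.41 ± 0.09 (edgeR adjusted p = 0.00237). Cadps fell by 0.27 ± 0.07, Sort1, the sortilin gene, by 0.22 ± 0.06 and Sytl4, a granuphilin gene, by 0.34 ± 0.12. The call for Sytl4 was lost without Scr replicates 1, 3 or 4 or Scr+Cy replicates 2 or 3 (adjusted p up to 0.153).

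Among 14 genes of other endocrine fates and dedifferentiation, 1 rose and none fell, or 4 and 1 with the replicate block. The higher one was Irx2, an α cell factor, with no read in Scr and at most 0.120 CPM in Scr+Cy. Its call was lost with the replicate block (adjusted p = 0.143) and without Scr replicates 1, 2, 3 or 4 or Scr+Cy replicates 1, 3 or 4 (adjusted p up to 0.159). Gcg, the glucagon gene, was at 246, 369, 279 and 259 CPM in Scr and 138, 190.3, 134 and 173 CPM in Scr+Cy, without overlap. It was lower in all 4 pairs, with an adjusted p of 0.0835 without and 6.72e-09 with the replicate block.

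**Figure D4:**
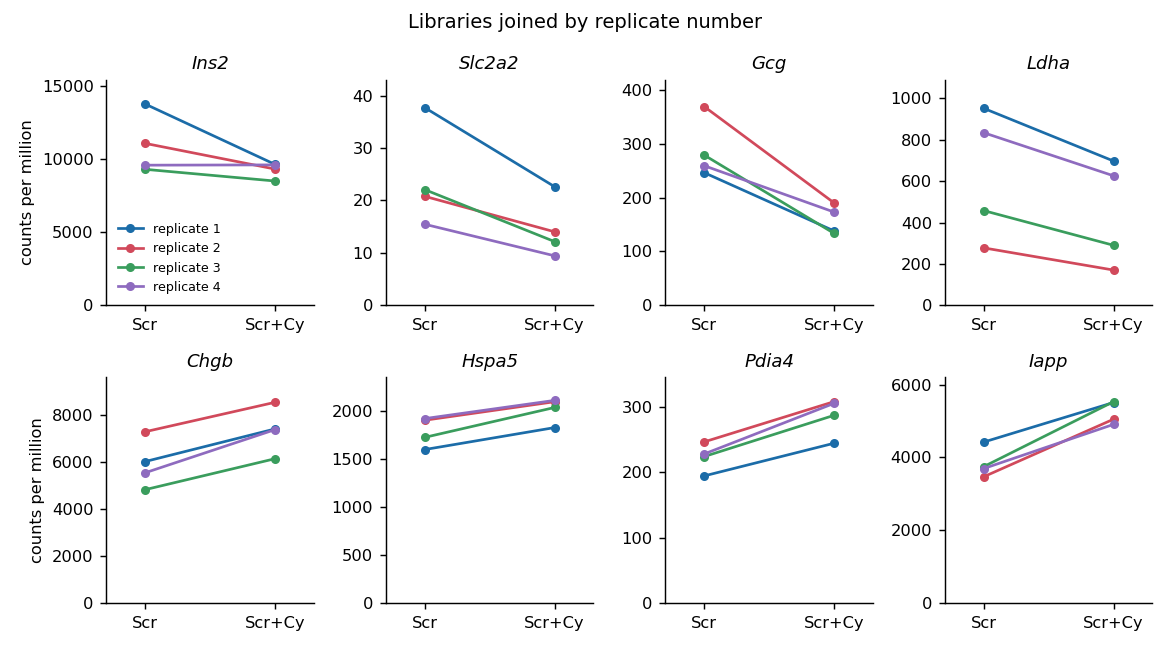
Level in CPM (y axes, linear from 0) of 8 genes in Scr and Scr+Cy, with a line joining the 2 libraries that share a replicate number. Slc2a2, Gcg and Ldha were lower and Chgb, Hspa5, Pdia4 and Iapp higher with cytokines in all 4 pairs, while Ins2 was lower in 3 and nearly level in replicate 4.

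Genes of the endoplasmic reticulum (ER) and its stress responses were set beside the shares of all genes. Of all genes tested, 10.5% rose and 7.33% fell, or 16.6% and 14.5% with the replicate block. Of 19 ER chaperone and unfolded protein response genes, 2 rose and none fell, with a median of 0.18, whereas 12 rose and 3 fell with the replicate block and 7 rose in a fit of the 8 libraries alone. The 2 became 1 without Scr replicate 4 or Scr+Cy replicate 2. Hspa5, the gene of the chaperone BiP, was at 1596, 1902, 1723 and 1919 CPM in Scr and 1825, 2094, 2034 and 2108 CPM in Scr+Cy and higher in all 4 pairs, with an adjusted p of 0.299 without and 2.30e-04 with the replicate block. Pdia4, which forms disulphide bonds, and Ern1, the stress sensor IRE1α, were higher with the replicate block (adjusted p = 3.47e-07 and 2.55e-06), and Herpud1 was lower (2.91e-05). Eif2ak3, the sensor PERK, rose by 0.36 ± 0.08 (edgeR adjusted p = 0.00148), and Xbp1 was at 219.9 to 239 CPM in Scr and 219.6 to 239 CPM in Scr+Cy. Of 14 genes of the integrated stress response, 1 rose and 1 fell with a median of -0.13, or 2 and 7 with the replicate block. Atf3 rose from 2.54, 1.61, 2.22 and 1.83 CPM to 4.87, 6.54, 7.82 and 7.12 CPM (1.68 ± 0.20). Chac1 fell by 0.69 ± 0.20, a call lost without Scr replicate 3 or Scr+Cy replicates 1 or 2 (up to 0.0891). Ddit3, the gene of the proapoptotic factor CHOP, was at 17.7 to 27.5 CPM in Scr and 18.6 to 27 CPM in Scr+Cy and did not pass the test.

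Mitochondrial genes changed by small amounts. Their counts stand beside 10.5% higher and 7.33% lower among all genes tested, or 16.6% and 14.5% with the replicate block. Of 84 nuclear-encoded subunits of oxidative phosphorylation, none rose and 9 fell, with a median of -0.09 and a negative value in 72, and 1 rose and 23 fell with the replicate block. The 9 became 5 without Scr replicate 1 or Scr+Cy replicate 3 and 4 without Scr+Cy replicate 2. Of 22 genes of mitochondrial import, shape and mitophagy, 1 fell, or 1 rose and 3 fell with the replicate block. It was Vdac1, a channel of the outer membrane, which fell by 0.24 ± 0.07, a call lost without Scr replicate 4 or Scr+Cy replicate 2 (up to 0.0633). Of 81 cytosolic ribosomal protein genes, 1 rose and none fell, with a median of -0.04, or 2 and 4 with the replicate block, and 2 fell with DESeq2, with median ratio size factors or with filterByExpr.

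Among 26 genes of the cell cycle and DNA replication, 3 rose and 3 fell, with a median of -0.03, or 6 and 9 with the replicate block. None rose without Scr replicates 1 or 2 or Scr+Cy replicate 3, and 1 without Scr+Cy replicate 4, and 1 fell without Scr replicate 3 or Scr+Cy replicates 1 or 2. Mki67, a proliferation marker, was at 1794, 2043, 2208 and 2351 CPM in Scr and 1546, 1491, 1727 and 1718 CPM in Scr+Cy and fell by 0.37 ± 0.08 (edgeR adjusted p = 0.00142). Ccnd2, the main D cyclin of mouse β cells, fell by 0.46 ± 0.14 and Ccnb2 by 0.28 ± 0.08. The call for Ccnd2 was lost without Scr replicate 3 or Scr+Cy replicates 1, 2 or 4 (adjusted p up to 0.147), and that for Ccnb2 without Scr replicates 3 or 4 or Scr+Cy replicates 1 or 2 (adjusted p up to 0.0881). For Ccnd2 the edgeR adjusted p with the replicate block was 5.27e-07. The helicase subunit genes Mcm4, Mcm5 and Mcm6 rose by 0.20 ± 0.07, 0.18 ± 0.06 and 0.25 ± 0.07. The call for Mcm4 was lost without Scr replicates 1 or 2 or Scr+Cy replicates 3 or 4 (adjusted p up to 0.123), that for Mcm5 without Scr replicates 1, 2 or 4 or Scr+Cy replicates 2, 3 or 4 (adjusted p up to 0.174) and that for Mcm6 without Scr replicates 1 or 2 or Scr+Cy replicate 3 (adjusted p up to 0.0677). Of 20 genes for cholesterol synthesis and uptake, none rose or fell, or 4 and 5 with the replicate block.

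Of 15 AP-1 and early response factors, 5 rose and none fell, with a median of 0.13, or 6 and 2 with the replicate block. Junb was at 18.7, 13.7, 12.3 and 14 CPM in Scr and 61.7, 68.6, 65.2 and 52.3 CPM in Scr+Cy (2.07 ± 0.14; edgeR adjusted p = 4.05e-11), and Jun, Ier3, Maff and Cebpd rose by 1.00 ± 0.12, 1.66 ± 0.21, 0.95 ± 0.14 and 0.92 ± 0.20. Among 19 genes that the study used as targets of miR-146a-5p, protein readouts or references, 2 rose and 2 fell with a median of -0.08, or 4 and 7 with the replicate block. Nrg1, a ligand of ErbB receptors, rose by 1.47 ± 0.18, and Gpx1 and Sort1 changed as given above. The cytoskeletal reference gene Actb fell by 0.23 ± 0.06, a call lost without Scr replicate 3 (0.0509), and the reference gene Hprt was at 121 to 136 CPM in Scr and 117 to 137 CPM in Scr+Cy (adjusted p = 0.971).

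**Figure D5:**
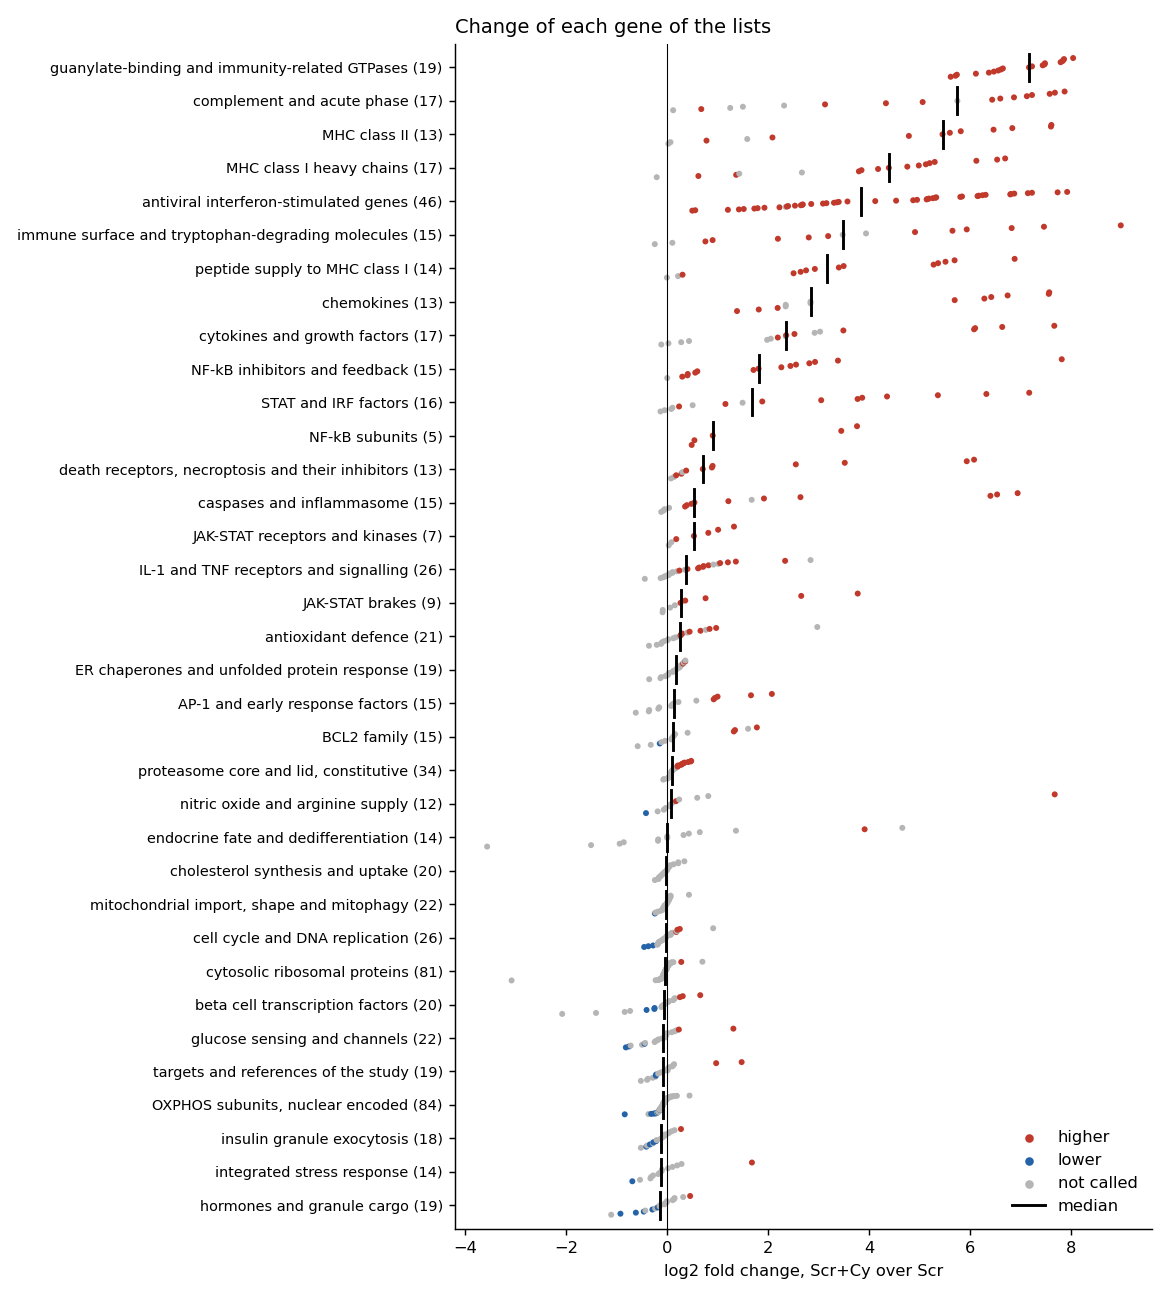
Log2 fold change in Scr+Cy over Scr (x axis) of each gene of 35 lists (rows, with the number of genes measured), in red where higher, blue where lower and grey where not called, with a black line at the median of the list. Medians run from 7.17 for the interferon-inducible GTPases, through 0.90 for NF-κB subunits, to -0.15 for hormones and granule cargo.

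The 15 largest falls among genes at 1 CPM or more were small beside the rises, with log2 fold changes between -1.63 and -1.24. Tacr3, the neurokinin B receptor, went from 4.45, 4.8, 2.97 and 2.88 CPM to 1.82, 1.34, 0.927 and 0.781 CPM (-1.63 ± 0.30; edgeR adjusted p = 2.89e-04). F13a1, a coagulation factor gene, fell by 1.55 ± 0.21, with Scr+Cy replicate 1 the highest treated library. Hgsnat (chromosome 8, 25944459 to 25976744), a lysosomal enzyme of heparan sulphate breakdown, was at 171, 175, 144 and 124 CPM in Scr and 69.7, 60.8, 56.2 and 57.3 CPM in Scr+Cy (-1.33 ± 0.08; edgeR adjusted p = 4.35e-12). Gfra1, the GDNF co-receptor, went from 34.3, 29.2, 36.9 and 38.7 CPM to 16.6, 11.2, 11.2 and 16.4 CPM. The others were Creg2, Foxq1, Rasl11a, Rph3a, Diras2, Kif21b, Aard, Col20a1, Myh7b, Upk3a and Abca4. Calls were lost for Foxq1 without Scr+Cy replicate 2 (0.0504), for Upk3a without Scr replicate 3 (0.0570), for Myh7b without Scr replicates 1 or 3 or Scr+Cy replicates 2 or 4 (adjusted p up to 0.0868) and for Abca4 without Scr replicates 2 or 4 or Scr+Cy replicates 2, 3 or 4 (adjusted p up to 0.0732). With the replicate block their edgeR adjusted p was 2.70e-04, 1.06e-06, 0.00123 and 0.00545.

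Measured as reads gained, the leading genes included H2-K1, B2m, H2-D1, Tapbp, Iapp, Igtp, Gbp2, Iigp1 and Gbp7. Measured as reads lost, the 10 leading genes were Scg2, Igf2, Ubr4, Papss2, Ttr, Npy, Mki67, Ccnd2, Ece1 and Maged1. Npy, the neuropeptide Y gene, went from 1758, 1947, 1991 and 1948 CPM to 1140.5, 1199.5, 1442 and 1428 CPM (-0.55 ± 0.11; edgeR adjusted p = 7.94e-04), and Papss2, of sulphate activation, fell by 0.51 ± 0.10. Ttr, the transthyretin gene, abundant in α cells, was at 1661, 1611, 1249 and 1467 CPM in Scr and 955, 909, 735 and 851 CPM in Scr+Cy, apart in every library. It fell by 0.80 ± 0.28 but lost its call without any 1 of the 8 libraries (0.0534 to 0.123), and its adjusted p with the replicate block was 6.82e-12. The 4 measured α cell markers, Gcg and Ttr among them, summed to 1571 to 2007 CPM in Scr and 906 to 1123 CPM in Scr+Cy. The call for Ubr4 was lost without Scr replicates 1, 2 or 3 or Scr+Cy replicates 3 or 4 (adjusted p up to 0.134). Its edgeR adjusted p with the replicate block and all 8 libraries was 3.51e-07.

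The response of Scr cells was set beside that of ZIP and OE cells, each against its own untreated libraries. The question was where it differed in lines made to inhibit or overexpress miR-146a-5p. The paper reports no change of miR-146a-5p in untreated ZIP cells against Scr cells. With cytokines, it reports a far larger rise of miR-146a-5p in Scr cells than in ZIP or OE cells. Out of 17696 genes tested in each line, 2407 rose and 2267 fell in ZIP cells. In OE cells 4073 rose and 3811 fell, so the overlaps with the 2 lines stand against unlike shares of all genes. Of 1853 genes that rose in Scr cells, 1503 (81.1%) also rose in ZIP cells, where they were 62.4% of 2407, and 1471 (79.4%) rose in OE cells, 36.1% of 4073. Of 1298 that fell, 1055 (81.3%) fell in ZIP cells, 46.5% of 2267, and 888 (68.4%) in OE cells, 23.3% of 3811. The difference itself was tested as an interaction. It passed for 10 genes between ZIP and Scr (0.0565% of those tested, with 1137 genes at an unadjusted p under 0.05) and for 3537 between OE and Scr (20.0%). With the replicate block or with DESeq2, 45 and 41 genes passed between ZIP and Scr.

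For none of the 10 largest rises in Scr cells did the interaction pass in either line, the lowest adjusted p being 0.753 in ZIP and 0.0995 in OE. The latter was Ifi47, of the immunity-related GTPases, with a log2 fold change of 8.04 in Scr, or 8.97 without Scr replicate 3, and 11.04 in OE. For Zbp1 the log2 fold change was 7.92 in Scr, or 9.65 without Scr replicate 3, 6.62 in ZIP and 11.10 in OE. Zbp1 reached a mean of 411 ± 48.8 CPM in treated OE cells and 305 ± 64.3 CPM in treated ZIP cells. Mean untreated levels of Ifi47 and Zbp1 varied between the lines, with an SD above the mean in each line. This variation was not tested. Ifi47 was at 0.707 ± 0.728 CPM in untreated Scr cells (SD, n = 4), 1.97 ± 3.07 CPM in ZIP cells and 0.273 ± 0.286 CPM in OE cells, and Zbp1 at 1.23 ± 1.74, 3.05 ± 4.61 and 0.189 ± 0.209 CPM. Over the 50 strongly induced genes, each untreated library was set against the treated mean of its own line. The median level was 0.0752% to 0.190% of the treated OE mean in the OE libraries. In the Scr libraries it was 0.159% to 1.40% of the Scr+Cy mean. Of the treated ZIP mean, it was 0.254%, 0.399% and 0.504% in ZIP replicates 1 to 3 and 3.43% in ZIP replicate 4, which stood apart. These shares depend on the treated level of each line as well as on the untreated one. The part of the untreated levels in the differences between lines was not tested.

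Among genes that changed in Scr cells, the interaction with OE passed for 570 of the higher (393 with a larger change in OE and 177 with a smaller one) and for 402 of the lower (240 and 162). Of all genes tested, the log2 fold change was higher in OE for 1706 (9.64%) and lower for 1831 (10.3%). By list, the log2 fold change was higher in OE for 27 of the 46 antiviral genes, lower for 1, and higher for 10 of the 16 STAT and IRF factors, Irf1 among them. It was lower in OE for 15 of the 19 ER chaperone and unfolded protein response genes and 21 of the 26 cell cycle genes, and higher for 11 of the 14 genes of the integrated stress response. For the 13 chemokines the interaction passed in none, though their median fitted log2 fold change was 6.21 in OE and 2.84 in Scr. The differences had wide SEs and went in both directions, as for Cxcl10 (3.11 ± 1.20) and Ccl20 (-1.53 ± 0.97). With untreated levels near 0, the lack of calls does not show that the responses were equal. The ZIP and OE lines are each from single clones, so a difference between clones and an effect of miR-146a-5p cannot be told apart. By the study's methods, OE cells also carry a different vector, with an RFP reporter. ZIP and Scr cells share a type of vector with a GFP reporter. For OE, vector and reporter cannot be told apart from clone and miR-146a-5p either.

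The 10 genes whose response differed between ZIP and Scr were picked out after their values were seen. Of these, Hgsnat fell in Scr cells from 154 ± 23.9 to 61.0 ± 6.14 CPM and in ZIP cells from 66.5 ± 2.24 to 46.9 ± 1.68 CPM, a difference of 0.83 ± 0.12 (edgeR adjusted p = 0.000986). Pim2, a kinase that favours survival, rose from 57.5 ± 1.02 to 127 ± 13.8 CPM in Scr and from 48.8 ± 5.42 to 213 ± 11.4 CPM in ZIP cells. Ptpn11, the phosphatase SHP2, was level in Scr at 475 ± 50.7 and 487 ± 44.1 CPM, without passing the test, and went from 491 ± 20.8 to 789 ± 81.2 CPM in ZIP. For Casp8 the rise was 0.48 in Scr and 1.21 in ZIP, from 13.0 ± 1.26 to 18.2 ± 1.36 CPM and from 6.14 ± 1.01 to 14.2 ± 0.775 CPM.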

How the data were processed

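RNA-seq libraries of MIN6 cells were used as estimated counts per gene. The comparison, its members and the gene lists were chosen with earlier results of these data known, though the rule for the members uses labels only. The study's methods state that the authors ran FastQC, aligned reads to mm10 with STAR, counted reads over genes of the RefSeq Transcripts 96 annotation in Partek Flow and removed genes with fewer than 10 total reads. The submitters' processing notes name STAR 2.7.8a and Partek Flow 11.0.24.0204. Whether counting used strand is not given in the sources used here, so genes on opposite strands of a locus are uncertain. The deposited estimated counts, 30.3% of them not whole, were rounded. A second deposited file holds a signal that is these counts divided by 1 factor per library, and was not used for tests.

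All 24 libraries were fitted together in edgeR 4.0.16 (R 4.3.3) with 1 mean for each of 6 groups, TMM scaling and no covariate, so all groups share the estimate of spread. The quasi-likelihood test was used with Benjamini-Hochberg adjustment over 17696 genes, and each SE was taken as the absolute log2 fold change over the root of the F statistic. Levels are CPM after TMM scaling. At 29370152 to 36406136 reads a library, 3 reads, taken as the floor, are 0.0885 CPM over the Scr libraries. The floor covers counting error only. Replicate numbers were tested as pairs on deviations from group means over 12670 genes. Same-numbered correlations were 0.6258, 0.4352, 0.4132 and 0.5535, all above 0.1, so the fit with the replicate block is given beside a result where it changes the call or moves a count by over 1.5 times.

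Genes named are the 15 largest rises and 15 largest falls with adjusted p under 0.05, libraries that do not overlap and a mean of 1 CPM or more in Scr or Scr+Cy, the 10 largest gains and losses in CPM, members of the lists, and, for the comparison between lines, the 10 largest rises. Genes whose response differed between ZIP and Scr were named after their values were seen. Alternatives were DESeq2 1.42.0, median ratio size factors, filterByExpr, a fit of the 8 libraries alone, the replicate block and each library left out. The fits with a library left out had no replicate block. Scripts were tested on simulated data. Some genes that the naming rule or the lists hold are not reported here, though the counts include them.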

Additional observations from a re-analysis of the deposited data

Results flagged for a closer look

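Single libraries stood apart in 28 of 466 groups of 4 (233 named genes, 6.01%). In these the gap between the extreme library and its neighbour, given as a share of the group's range, passed the 95% critical value of Dixon's test for 4 samples, which chance passes in about 1 group in 20. Scr+Cy replicate 1 was the lowest treated library for Apol9b (0.883 of the range), Zbp1 (0.881), Tgtp2 (0.862), Gbp2 (0.876), Irf1 (0.857), Jak2 (0.877), Usp18 (0.843), H2-T23 (0.84) and Nlrc5 (0.865), 9 genes of interferon signalling or its targets. It was the highest treated library for F13a1 (0.971) and for the fibroblast genes Col1a1 (0.925) and Dcn (0.998). Scr replicate 3 was the highest untreated library for 9930111J21Rik1 (1.0), Irf8 (1.0), Psmb8 (0.926), Parp14 (0.935) and C3 (0.858), all of which rose with cytokines. Scr replicate 2 was highest for Rasl11a (0.898), and Scr replicate 1 for Traf3 (0.908) and Mafa (0.952). Scr replicate 4 was lowest for H2-D1 (0.835) and Adar (0.957). Scr+Cy replicate 3 was highest for Tnf (0.846), Trim30a (1.0) and Casp8 (0.949). Scr+Cy replicate 4 was lowest for Traf3 (0.936) and Rfx5 (0.848) and highest for Qdpr (0.834). For 9930111J21Rik1, Irf8 and Trim30a the single high library is the only one of its group with a read.

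The cytokine response differed between ZIP and Scr cells, by edgeR's interaction test, in 10 genes. The log2 fold change was higher in ZIP for Cebpd by 2.07 ± 0.35 (adjusted p = 0.0124), Rbms1 by 1.74 ± 0.31 (0.0178), Ism1 by 1.35 ± 0.23 (0.0132), Pim2 by 0.98 ± 0.13 (0.000896), Crybg1 by 0.92 ± 0.15 (0.00688), Hgsnat by 0.83 ± 0.12 (0.000986), Casp8 by 0.73 ± 0.13 (0.0291), Mpzl1 by 0.72 ± 0.10 (0.000896) and Ptpn11 by 0.65 ± 0.11 (0.0132). For Ntn1, the gene of the guidance factor netrin-1, the difference was -1.38 ± 0.18 (0.000896), from 2.40 ± 0.402 to 4.79 ± 0.462 CPM in Scr cells and from 51.2 ± 8.42 to 39.3 ± 5.53 CPM in ZIP cells. The untreated level of Ntn1 and of Cebpd (6.30 ± 0.963 CPM in Scr and 0.527 ± 0.196 CPM in ZIP) already differed between the lines.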

How the results depend on the processing

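With the replicate block, 2944 genes rose and 2559 fell, against 1853 and 1298 without it, and 18 of 34 named genes that had not passed did so, while 198 of 199 named genes that had passed did so again, Irx2 being the exception (adjusted p = 0.143). Between ZIP and Scr, 10 genes passed the interaction test, and 41 did with DESeq2 and 45 with the replicate block over all libraries. Leaving out each of the 8 libraries in turn gave 1581 to 1777 higher and 919 to 1269 lower genes, 1190.0 to 1507 and 388 to 660.0 at the study thresholds, 9 to 12 for the interaction with ZIP and 3061 to 3387 for that with OE. The other settings gave 1776 to 1840.0 higher and 1191 to 1621 lower genes, the last with DESeq2. No named gene reversed its sign with a call under any setting. Ttr lost its call with DESeq2 (adjusted p = 0.0705), Qdpr and Mcm5 with median ratio size factors (0.0544 and 0.0560), and genes including Slc30a8, Vdac1, Mcm4, Bcl2l2 and Irx2 in the fit of the 8 libraries alone (0.0529 for Vdac1 to 0.113 for Irx2). With both libraries numbered 1 left out, a setting chosen after seeing the data, 18 named genes lost their calls, Igf2 among them (0.0612). Depth limits genes near the floor of 3 reads, 0.0885 CPM, where a fitted fold change is no bound. The untreated level of induced genes differs between the Scr libraries, and so do fold changes that rest on it.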
